A study of Mus musculus with 2 samples.

Results

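The amino acid transporters of the intestine and their relatives of the SLC6 family were followed in mice fed either chow or a diet in which amino acids stood in for food protein. Members were all genes that the array names in families SLC1, SLC3, SLC6, SLC7, SLC36, SLC38 and SLC43, together with Slc16a10. The rule reads gene names alone, but it was set with earlier results of these data known. This gave 63 of the 27376 gene names on the array. One of them, Slc7a6os, is a neighbour of Slc7a6 on the opposite strand and not a transporter, and it stood at a log2 ratio of -0.01 ± 0.05. Of the remaining 62 transporters, 45 gave a signal well above background in at least 1 diet on both arrays, as did 17037 of all gene names.

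RNA came from the small intestine of C57BL/6 mice 6 to 8 weeks old. The control group (Conv) ate the chow LASQCdietRod16, and the food antigen-free group (FAF) ate a diet containing amino acids, on which mice were kept for up to 5 generations. The labels mention SPF and GF mice without saying which of them gave the RNA, and neither the segment of the gut nor the number of mice per sample is given in the sources used here. Both arrays held the same pair of RNA extracts with the dyes exchanged, so there was 1 RNA sample per diet, no replicate mouse and no test. All ratios below are log2 of FAF over Conv, averaged over both arrays, and the value after ± is the distance of either array from that mean. It covers error from dye and hybridisation but not the variation among mice. Where levels of the diets are said to overlap or to lie apart, hybridisations of 1 extract per diet are compared. The share of all measured genes without overlap was not counted. A gene was called by a 2-fold rule when the mean reached 2-fold and each array reached 1.5-fold in the same direction, and by a 1.5-fold rule when the mean reached 1.5-fold with the same sign on both arrays. In bulk tissue, fewer cells of a type and less RNA per cell cannot be told apart.

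Enterocytes take up amino acids across the apical brush border and release them into the blood across the basolateral membrane. Uptake is driven by sodium or protons, or by exchange against amino acids already in the cell, whereas exit runs through exchangers and facilitated carriers. Several of these carriers are pairs of a heavy subunit, rBAT (Slc3a1) or 4F2hc (Slc3a2), which brings the complex to the membrane, and a light subunit of the SLC7 family, which transports. The SLC6 family also holds the carriers that clear dopamine, noradrenaline, serotonin, GABA and glycine around nerve cells.

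The probes of the members with the largest differences, together with Slc6a20b, a close relative of Slc6a20a, are shown because 1 probe stands for the gene in each. The first 30 of their 60 bases are given, with the position of the whole probe in build mm9.
Slc6a3 probe, chr13:73715973-73716032: tggctgagaagaatcaggtttaccatctcc
Slc6a20a probe, chr9:123545862-123545921: aggttaaggcttctttgtcatcaaaggtta
Slc6a20b probe, chr9:123504197-123504256: acgtggtgactaaggattatcctacatacg
Slc7a15 probe, chr12:8545188-8545247: attctgttggccacctcctggatggtttcc
Slc7a8 probe, chr14:55341137-55341196: tatttcttttggattttttaatgtatggcg
The Slc6a20a and Slc6a20b probes had 15 of 60 bases in common position by position, and at most 22 identical bases in an overlap of 48 at any offset without gaps. Positions are those of the array files, and the gene annotation of build mm9 was not used here.

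By the 2-fold rule, 3 of the 45 measured transporters were higher in FAF and 0 were lower, where 1.54% of all measured genes were higher and 0.886% lower. The 3 were Slc6a3, the dopamine transporter, Slc6a20a, the brush border transporter of proline and other imino acids, and Slc7a15, a light subunit with a preference for aromatic amino acids. By the 1.5-fold rule, 8 transporters were higher and 1 was lower, against 4.53% and 3.6% of all measured genes. Besides those 3, the higher ones were Slc6a20b, Slc7a8, Slc3a2, Slc6a8 and Slc6a7, and the lower one was Slc7a1. Over the 45, 27 ratios were above 0 and 18 below, and their median was 0.10, beside a median of -0.00 for all measured genes. Most members therefore differed little between the samples, and the differences lay in a few of them. Between the arrays, Pearson's r of the ratios was 0.97 and Spearman's rho 0.93 over the 45 transporters, beside 0.90 and 0.81 over all measured genes, as a description across genes, which share their RNA and are not independent replicates.

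**Figure D1:**
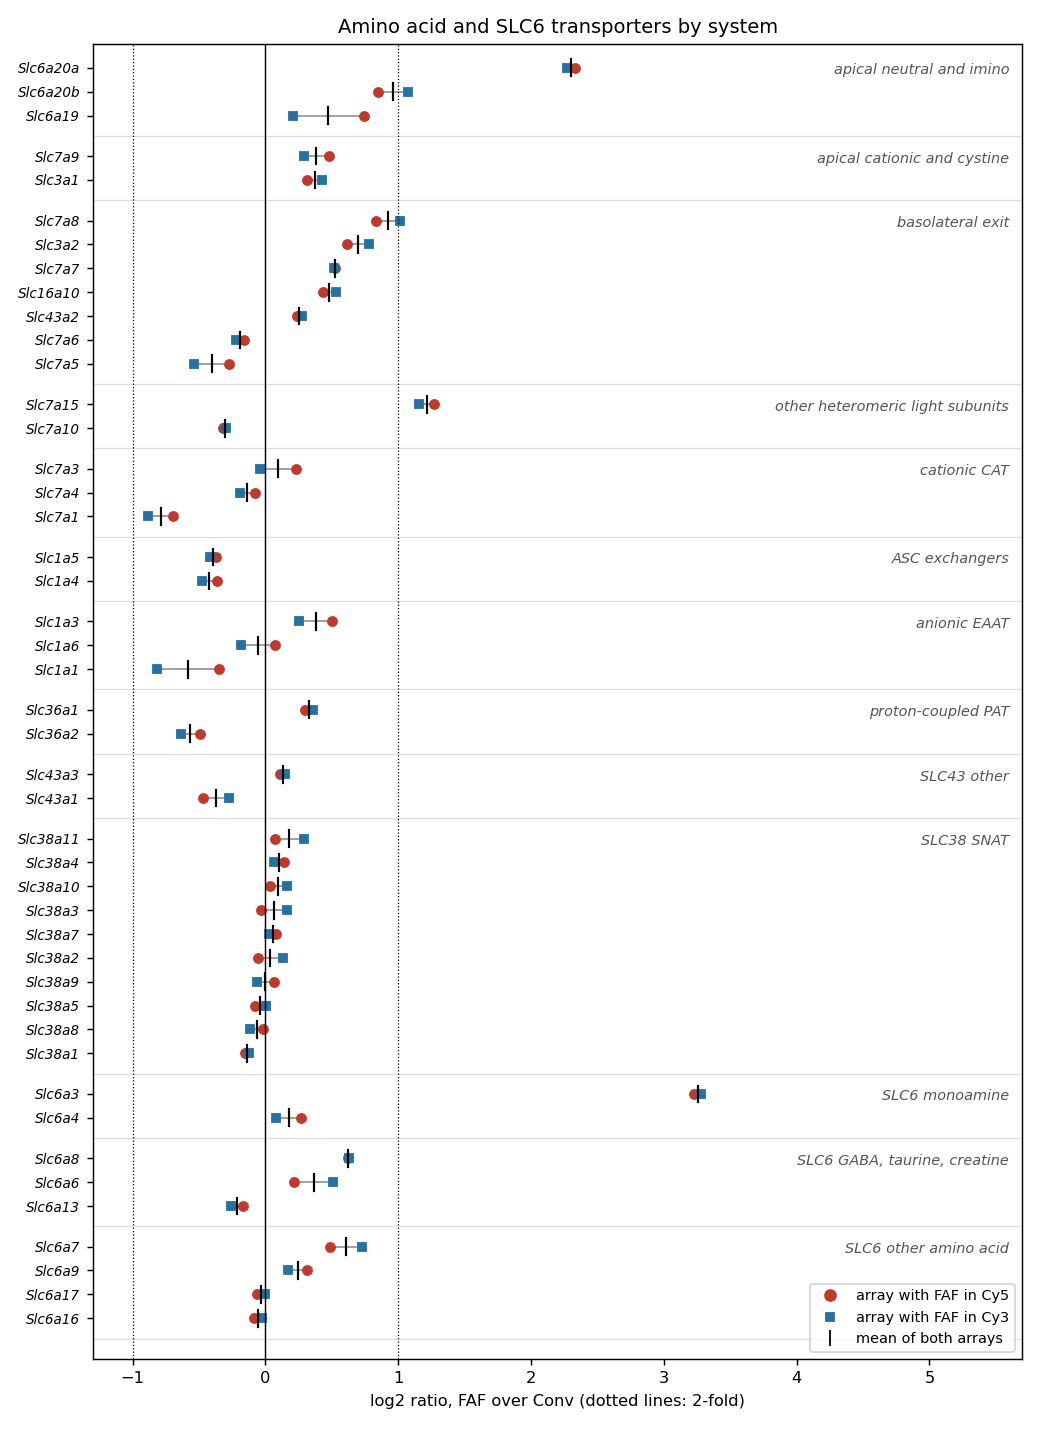
Log2 ratio of FAF over Conv on the horizontal axis for the 45 measured transporters, grouped by transport system. Circles are the array with FAF in Cy5, squares the array with FAF in Cy3 and vertical bars their mean. Slc6a3, Slc6a20a and Slc7a15 lie beyond the 2-fold line, and the mean ratios of the SLC38 members lie between -0.14 and 0.18.

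The apical carriers of neutral and imino acids held the largest difference among the transporters of food amino acids. Slc6a20a, which takes up proline with sodium, had scaled log2 levels of 13.70 and 13.72 in FAF and 11.37 and 11.45 in Conv. Both FAF values lay above both Conv values, and the ratio was 2.30 ± 0.03, or 4.92-fold, the 15th highest of 17037 genes. Its neighbour Slc6a20b, which is placed on no side here, was dim, at 7.34 and 7.27 in FAF and 6.50 and 6.20 in Conv, and was well above background in Conv on only 1 of the 2 arrays. Its ratio was 0.96 ± 0.11, or 1.95-fold, and the scanner software's own correction gave 2.59. The direction was thus the same for both relatives, while the size for Slc6a20b depended on how background was removed.

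Slc6a19, the main sodium-driven carrier of neutral amino acids (B0AT1), had levels of 12.62 and 12.41 in FAF and 11.89 and 12.20 in Conv. The levels of the diets did not overlap, but the arrays gave 0.74 and 0.21, so that the ratio of 0.47 ± 0.27 carried the widest gap between arrays among the 45. Slc6a14 and Slc6a18, which also carry neutral amino acids, did not rise above background enough in either diet to be measured. In FAF the imino acid carrier thus stood 4.92-fold higher and the broad neutral carrier 1.39-fold higher.

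The apical exchanger for cationic amino acids and cystine is a pair of rBAT and its light subunit, and both subunits had nearly the same ratio. Slc3a1, which encodes rBAT, had levels of 13.25 and 13.44 in FAF and 12.94 and 13.02 in Conv, with a ratio of 0.37 ± 0.06. Slc7a9, its light subunit, had 14.03 and 13.96 in FAF and 13.55 and 13.67 in Conv, with a ratio of 0.38 ± 0.09. In both genes each FAF value lay above each Conv value, and neither passed the 1.5-fold rule.

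A further light subunit, placed on no side here, was called higher. Slc7a15, the aromatic-preferring ArpAT of rodents, had levels of 11.74 and 11.67 in FAF and 10.47 and 10.52 in Conv, with no overlap. Its ratio was 1.21 ± 0.06, or 2.32-fold, and a dimmer probe of the gene gave 1.01. Under median centring in place of loess its mean was 1.26 but it no longer passed the 2-fold rule, since 1 array then stayed under 1.5-fold.

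Of the other 5 measured members placed on the apical side, 1 passed a rule. Slc6a8, the creatine transporter, had 14.56 and 14.60 in FAF and 13.95 and 13.97 in Conv, a ratio of 0.62 ± 0.01 that passed the 1.5-fold rule. Slc6a6, the taurine transporter, had 12.78 and 12.86 in FAF and 12.56 and 12.35 in Conv, with 0.36 ± 0.15 and 0.37 on its other probe. Slc36a1, which couples uptake to protons (PAT1), had 11.69 and 11.74 in FAF and 11.39 and 11.38 in Conv, with 0.33 ± 0.03. Neither Slc6a6 nor Slc36a1 passed the 1.5-fold rule. Under median centring Slc6a8 did not pass it either.

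Slc1a1, the sodium-driven glutamate and aspartate carrier EAAT3, had 10.18 and 9.997 in FAF and 10.53 and 10.81 in Conv. Both FAF values lay below both Conv values, the arrays gave -0.35 and -0.81, and the mean of -0.58 ± 0.23 fell just short of the 1.5-fold rule, with -0.49 on its other probe. Slc1a5, the glutamine exchanger ASCT2, had 11.496 and 11.55 in FAF and 11.87 and 11.97 in Conv, with -0.40 ± 0.02, and did not pass. Of the 11 members placed on the apical side, 9 were measured, 7 with a ratio above 0 and 2 below, and their median was 0.37.

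Of the 7 carriers of basolateral exit, 2 were higher by the 1.5-fold rule, Slc3a2 and Slc7a8, and 0 were lower. Slc3a2, which encodes the heavy subunit 4F2hc, had levels of 14.65 on both arrays in FAF and 14.04 and 13.87 in Conv. Its ratio was 0.70 ± 0.08, or 1.62-fold, and its dimmer probe gave 0.41, short of the 1.5-fold rule. The gene no longer passed with the mean over its probes, at 0.55, or under median centring. Slc7a8, the light subunit LAT2 that exchanges neutral amino acids, had 14.29 and 14.37 in FAF and 13.46 and 13.35 in Conv. Its ratio of 0.93 ± 0.09, or 1.90-fold, was the largest on the basolateral side. Slc7a7, the light subunit y+LAT1 that lets cationic amino acids out, had 15.38 and 15.50 in FAF and 14.85 and 14.98 in Conv, with 0.52 ± 0.00, short of the 1.5-fold rule. In all 3 genes the FAF values lay above the Conv values.

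Slc16a10, a facilitated carrier of aromatic amino acids (TAT1), had 11.71 and 11.77 in FAF and 11.28 and 11.24 in Conv, with 0.48 ± 0.05. Its 3 dimmer probes gave 0.40, 0.34 and -0.10, so its probes disagreed in sign. Slc43a2, the facilitated carrier LAT4, had 10.95 and 10.91 in FAF and 10.71 and 10.63 in Conv, with 0.26 ± 0.02. Its other probe, of nearly the same brightness, gave 0.69, which alone would have passed the 1.5-fold rule.

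The more widely expressed light subunits of 4F2hc lay below 0. Slc7a5, or LAT1, had 7.68 and 7.63 in FAF and 7.96 and 8.16 in Conv, with -0.41 ± 0.13. Slc7a6, or y+LAT2, had 6.70 and 6.74 in FAF and 6.86 and 6.96 in Conv, with -0.19 ± 0.03. Neither passed the 1.5-fold rule, although Slc7a5 did by the software's ratio, at -0.62. In both genes the FAF values lay below the Conv values. The heavy subunit 4F2hc therefore stood higher beside light subunits of either sign.

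Slc7a1, the arginine and lysine carrier CAT1, was the 1 transporter called lower. It had 9.23 and 9.17 in FAF and 9.92 and 10.06 in Conv, with no overlap, and a ratio of -0.79 ± 0.10, which was the 295th lowest of 17037. Only 1 of its 2 probes was measured. The other basolateral members lay closer to 0. Slc6a9, a glycine transporter (GlyT1), had 11.52 and 11.32 in FAF and 11.20 and 11.14 in Conv, with 0.24 ± 0.07. Slc38a2, the sodium-driven SNAT2, had 11.17 and 11.29 in FAF and 11.23 and 11.16 in Conv, with 0.04 ± 0.10, and its values overlapped. Its dimmer probes gave -0.03, -0.27 and -0.18, so the sign of Slc38a2 depended on the probe, and the mean over its probes was -0.11. All 10 members placed on the basolateral side were measured. By their brightest probes 7 were above 0, Slc38a2 among them, and 3 below, with a median of 0.25.

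**Figure D2:**
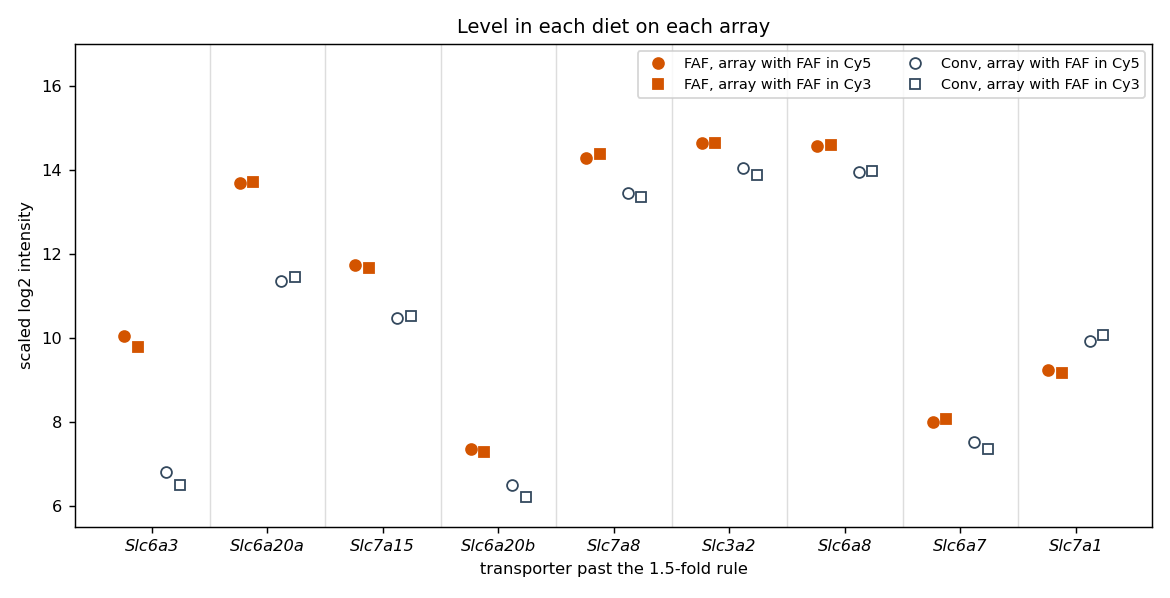
Scaled log2 intensity on the vertical axis of the 9 transporters past the 1.5-fold rule, with filled symbols for FAF and open symbols for Conv. Circles and squares are the arrays with FAF in Cy5 and in Cy3. The genes were chosen by their ratios, so that separate points of the diets largely follow from the rule. Levels of different genes are not comparable, since each comes from its own probe.

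The 26 measured members with no side assigned here, Slc7a15 and Slc6a20b among them, had 13 ratios above 0 and 13 below and a median of 0.03. Slc6a3 had the highest ratio of all 45 transporters. It clears dopamine at the endings of dopamine neurons. Its levels were 10.04 and 9.79 in FAF and 6.81 and 6.51 in Conv, and the ratio was 3.25 ± 0.03, or 9.55-fold, the fourth highest of 17037 genes. Before scaling, on the array with FAF in Cy5 its spot had an intensity of 1629 over a local background of 63 in FAF, and of 37.4 over 17 in Conv. On the array with FAF in Cy3 the intensities were 597 over 13 in FAF and 125 over 58 in Conv. The Conv signal was above background on both arrays but weak, and the software's ratio, which adds no offset, was 5.11. The gene was measured by 1 probe.

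Genes of dopamine and serotonin handling were set beside it. Of 10 listed, 9 were measured, 7 above 0 and 2 below, with a median of 0.26, and 3 passed the 1.5-fold rule as higher. These were Maob, which breaks down amines, at 0.92 ± 0.07, Tph1, which makes serotonin in gut endocrine cells, at 0.72 ± 0.07, and Slc18a1, a vesicular amine transporter, at 0.67 ± 0.09. Th, the rate-limiting enzyme of dopamine synthesis, had levels of 6.42 and 6.40 in FAF and 6.37 and 6.34 in Conv and a ratio of 0.06 ± 0.01, and it was well above background in Conv on 1 of the 2 arrays. Slc6a4, the serotonin transporter, stood at 0.18 ± 0.09, and Slc6a2, the noradrenaline transporter, was not well above background. Ddc, the enzyme that completes dopamine and serotonin, stood at 0.26 ± 0.04. Besides Slc6a3, 0 genes of amine transport or of that list passed the 2-fold rule. Enteric neuron and glia markers, 11 of 14 measured, had 10 ratios below 0 and 1 above and a median of -0.28, with Vip at -0.60, Elavl4 at -0.36 and Nos1 at -0.35. Chat and Gfap were among those too dim to be measured. The summed scaled intensity of all 14 neuron and glia markers, those too dim included, was 3749 to 3832 in FAF and 4694 to 4781 in Conv.

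**Figure D3:**
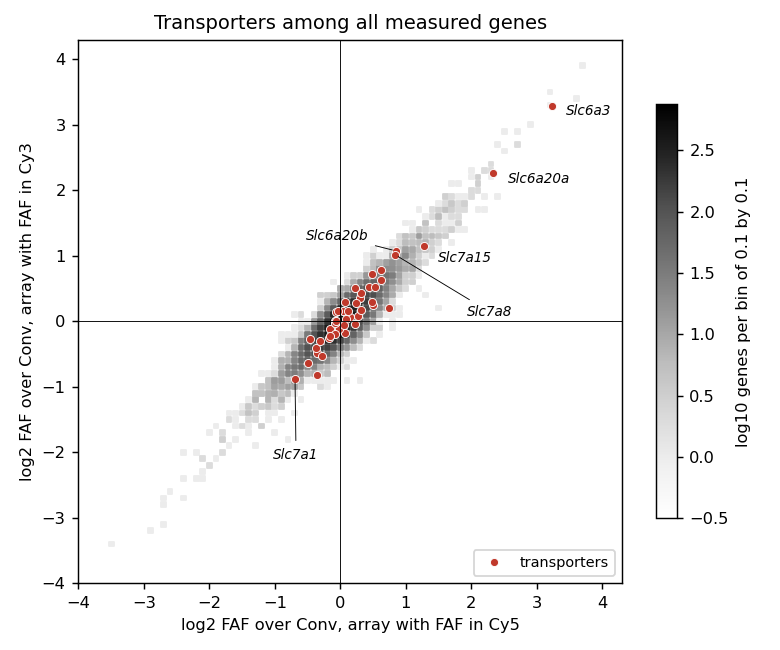
Log2 ratio of FAF over Conv on the array with FAF in Cy5 (horizontal) against that on the array with FAF in Cy3 (vertical). Grey squares are bins of all 17037 measured genes, darker with more genes on a log10 scale, and red points are the 45 transporters. Slc6a3 and Slc6a20a lie at the upper end of the distribution and the lowest transporter, Slc7a1, well inside its lower part.

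Slc6a7, a proline transporter known from neurons, had levels of 8.00 and 8.07 in FAF and 7.52 and 7.35 in Conv, with no overlap. Its ratio was 0.60 ± 0.12, just past the 1.5-fold rule, with 0.53 on its other probe. It missed that rule with the mean over its probes, at 0.57, and by the Cy5-labelled FAF array taken singly, at 0.48. Of the other SLC6 members measured, Slc6a13 (a GABA transporter) stood at -0.22, Slc6a16 (an orphan) at -0.06 and Slc6a17 (a vesicular carrier of neurons) at -0.03. Among those not well above background were Slc6a11 and Slc6a12, of GABA and betaine transport, Slc6a5, of glycine transport, and Slc6a15. Of 20 members of the SLC6 family 12 were measured, 9 above 0 and 3 below, with a median of 0.42.

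The SLC1 family lay mostly below 0, with 4 of 5 measured members below and a median of -0.40. Besides Slc1a1 and Slc1a5, these were Slc1a4, the alanine, serine and cysteine exchanger ASCT1, at -0.42 ± 0.06 and Slc1a6 at -0.06 ± 0.13, the last with opposite signs on the arrays. Slc1a3, a glutamate transporter of glia, stood at 0.38 ± 0.13. Slc1a2 and Slc1a7 were not well above background.

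Among other light subunits and cationic carriers, Slc7a10 stood at -0.31 and was well above background in FAF on 1 of the 2 arrays. The software's ratio placed Slc7a10 at -1.77. Slc7a3 stood at 0.09 and Slc7a4 at -0.14, while Slc7a2, Slc7a11, Slc7a12, Slc7a13 and Slc7a14 were not well above background. Slc36a2, a second proton-coupled carrier, stood at -0.56 ± 0.07 and was well above background in FAF on 1 of the 2 arrays. Its ratio was -1.77 by the software and -1.03 with an offset of 10. Slc36a3 and Slc36a4 were not measured. Slc43a1, or LAT3, stood at -0.37 ± 0.10 and Slc43a3, a purine carrier of the same family, at 0.13.

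The SLC38 family, sodium-driven carriers of glutamine and small neutral amino acids, had main ratios close to 0. The offset used for these ratios shrinks those of its dim members. All 10 members found on the array were measured and their ratios ran from -0.14 in Slc38a1 to 0.18 in Slc38a11, with a median of 0.05, 6 above 0 and 4 below. The others stood at 0.10 for Slc38a4, 0.10 for Slc38a10, 0.06 for Slc38a3, 0.06 for Slc38a7, -0.00 for Slc38a9, the lysosomal arginine sensor, -0.04 for Slc38a5 and -0.07 for Slc38a8. Slc38a11 and Slc38a4 were not well above background in Conv and counted as measured through FAF alone. Against a Conv floor their folds were 1.12 and 1.06, and the other probe of Slc38a4, too dim to be measured, gave -0.09. The floor is the higher of the gene's own Conv level and the lowest level that was well above background. Genes not well above background in Conv could lie above that lowest level, so such a fold is no firm bound. None of the 10 passed either rule, although the software's ratio placed Slc38a11 at 1.49 and Slc38a4 at 1.06. By the software, Slc38a3 stood at 0.85, Slc38a5 at -0.36 and Slc38a8 at -0.39. Slc38a3 was well above background in Conv on 1 of the 2 arrays, and its ratios had opposite signs on the arrays in both settings.

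**Figure D4:**
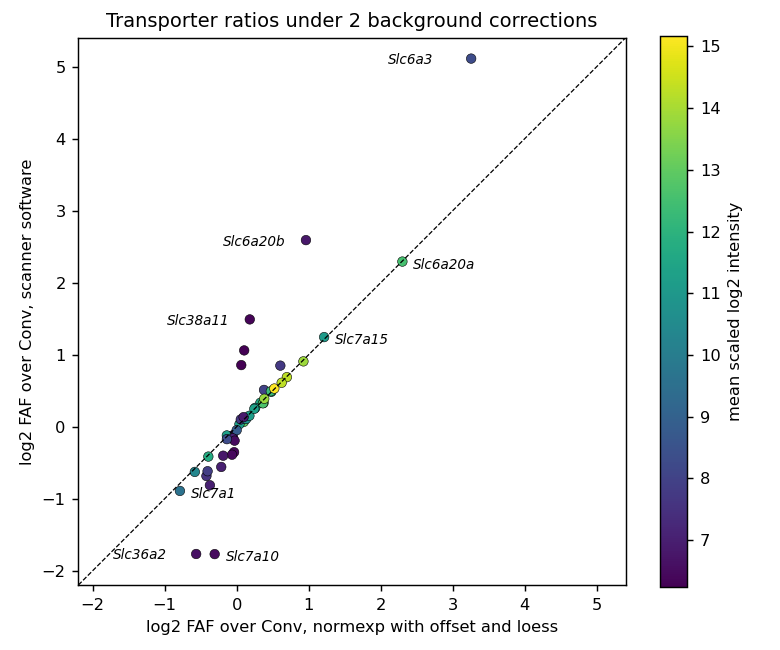
Log2 ratio of FAF over Conv of the 45 transporters from normexp with an offset and loess (horizontal) against that of the scanner software (vertical), coloured by mean scaled log2 intensity, with a dashed line of equality. Bright genes such as Slc6a20a (2.30 and 2.29) lie on the line, and dim ones such as Slc6a20b (0.96 and 2.59) lie away from it.

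Proteins that stabilise or power these carriers were also compared, from a list of 9, all measured, with 7 ratios above 0, 2 below and a median of 0.43. By the 1.5-fold rule, 3 of them were higher and 0 lower. Among the higher ones, Pdzk1, a scaffold under the brush border, stood at 0.88 ± 0.00, and Atp1b1, a subunit of the sodium pump, at 0.60 ± 0.06. The peptide carrier Slc15a1 stood at 0.43 ± 0.07, the peptidase Anpep at -0.15 ± 0.17, and Tmem27, which serves neutral amino acid carriers in kidney, at 0.07 ± 0.20. Anpep and Tmem27 had opposite signs on the arrays. Tmem27 was dim and was well above background in Conv on 1 of the 2 arrays.

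Known targets of ATF4, the factor that cells use when amino acids run short, were split. Among the transporters, 8 of 9 listed were measured, 4 above 0 and 4 below, with a median of -0.18. Slc3a2 passed the 1.5-fold rule as higher and Slc7a1 as lower, while Slc1a4, Slc1a5 and Slc7a5 lay near -0.41. Among 10 ATF4 targets that are no transporters, 4 were above 0 and 6 below, with a median of -0.34. Of these, 2 were lower by the 2-fold rule, Asns, which makes asparagine, at -1.18 and Phgdh, of serine synthesis, at -1.17. By the 1.5-fold rule 4 were lower, with Psat1 of serine synthesis at -0.99 and Chac1 at -0.69 besides those 2, and 1 was higher. The higher one was Trib3, which restrains ATF4, at 0.92, and the stress factor Ddit3 stood at 0.48.

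The upstream sequences of Slc6a20a and Slc6a20b are given because these neighbouring relatives were both higher, and that of Slc6a3 because it had the largest ratio. Each is the 250 bases before a start site, from RefSeq on GRCm38.p6, 5′ to 3′ on the gene's strand.
Slc6a20a upstream, chr9:123678833-123679082 (minus strand): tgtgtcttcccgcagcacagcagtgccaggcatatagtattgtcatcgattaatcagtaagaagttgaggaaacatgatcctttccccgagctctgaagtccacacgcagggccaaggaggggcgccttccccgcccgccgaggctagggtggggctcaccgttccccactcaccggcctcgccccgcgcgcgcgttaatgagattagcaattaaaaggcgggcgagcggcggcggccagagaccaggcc
Slc6a20b upstream, chr9:123632539-123632788 (minus strand): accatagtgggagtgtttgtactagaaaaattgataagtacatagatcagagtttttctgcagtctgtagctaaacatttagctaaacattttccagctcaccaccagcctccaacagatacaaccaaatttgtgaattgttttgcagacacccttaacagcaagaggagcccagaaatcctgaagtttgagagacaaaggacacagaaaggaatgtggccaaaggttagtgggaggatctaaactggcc
Slc6a3 upstream, chr13:73536497-73536746 (plus strand): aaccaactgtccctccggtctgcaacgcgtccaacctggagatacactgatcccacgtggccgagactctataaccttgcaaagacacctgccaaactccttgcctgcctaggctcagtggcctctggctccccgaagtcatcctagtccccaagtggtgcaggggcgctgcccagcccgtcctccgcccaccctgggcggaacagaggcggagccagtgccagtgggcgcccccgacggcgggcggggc
These windows differed in composition. Those of Slc6a20a and Slc6a3 held 21 and 16 CG pairs, with 61.2% and 66.0% G or C, and that of Slc6a20b held 0, with 41.6%. In a global alignment, Slc6a20a and Slc6a20b were identical at 100 of 241 aligned bases, or 41.5%, and Slc6a20a and Slc6a3 at 122 of 238, or 51.3%.

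Short motifs were searched in these windows on both strands, over 65 RefSeq promoters that matched 44 of the transporters by symbol and over all 32851 promoters. The C/EBP-ATF element TGATGNAA, of the kind bound by ATF4, was found in 4.62% of the transporter promoters and 3.45% of all. The HNF4 site CAAAGTCCA was found in 1.54% and 0.384%, the CDX2 site TTTATNG in 3.08% and 9.81%, and the palindromic HNF1 site and the D-box TTATGTAA in 0 transporter promoters and in 0.0609% and 0.819% of all. The genes with a C/EBP-ATF element were Slc7a7, with 1 match in each of 2 of its promoters, and Slc7a11, with 2 matches, and the gene with an HNF4 site was Slc3a1. One stretch of each is shown with the match in capitals.
Slc7a7, chr14:54418058-54418105 (minus strand): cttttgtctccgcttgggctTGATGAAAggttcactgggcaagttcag
Slc7a11, chr3:50443652-50443699 (minus strand): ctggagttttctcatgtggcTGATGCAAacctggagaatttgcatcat
Slc3a1, chr17:85028288-85028336 (plus strand): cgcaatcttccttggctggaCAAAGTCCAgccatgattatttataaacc
CDX2 matches lay upstream of Slc3a1 and Slc7a15. A match is a description of letters, and none was found in the windows of Slc6a20a, Slc6a20b or Slc6a3.

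Neighbours on the chromosome were examined after the values of these members had been seen. On chromosome 9, Slc6a20a and Slc6a20b are next to each other, and on the far side of Slc6a20b Sacm1l, a lipid phosphatase, stood at 0.88 ± 0.05. On the other side of Slc6a20a, Lztfl1 stood at -0.02 and the chemokine receptor Ccr9 at -0.57. On chromosome 13, where Slc6a3 lies near Slc6a18 and Slc6a19, its direct neighbours Lpcat1 and Clptm1l stood at 0.11 and -0.14 and Tert at 0.16. The ratio of Slc6a3 was therefore not shared by the genes beside it.

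**Figure D5:**
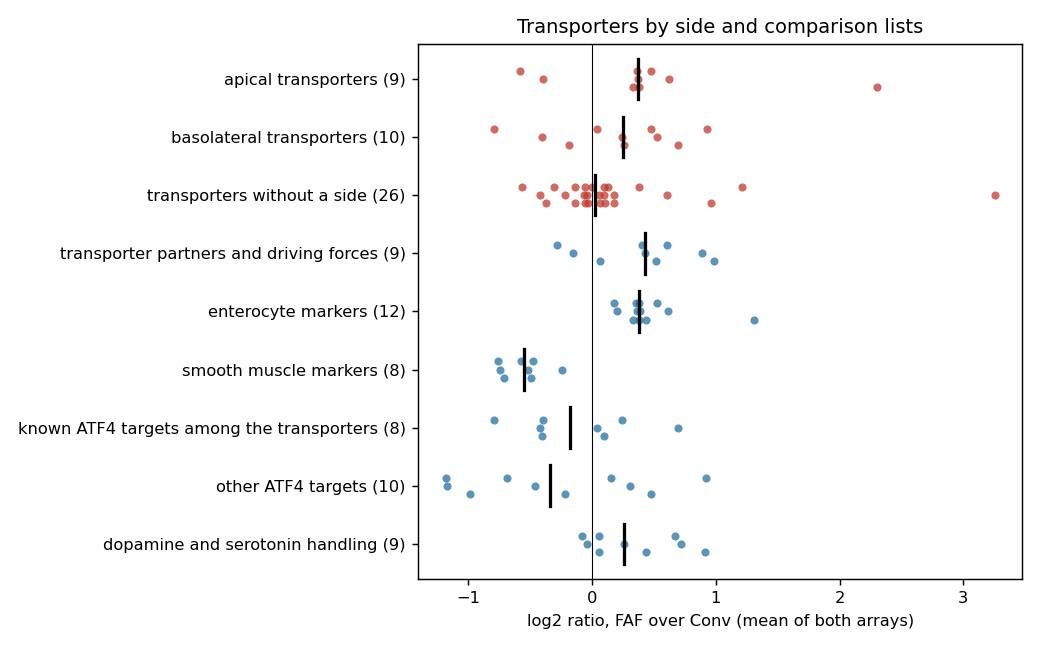
Log2 ratio of FAF over Conv of single genes (points) and their median (black bar), for transporters by side (red) and for comparison lists (blue), with the number measured in brackets. All 12 enterocyte markers lie above 0 and all 8 smooth muscle markers below, and the apical transporters have a median of 0.37.

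Markers of the cells in the sample were set beside the transporters. All 12 enterocyte markers were measured, with every ratio above 0 and a median of 0.38, and 2 passed the 1.5-fold rule as higher, led by Alpi at 1.31, Tm4sf20 at 0.61 and Cdhr2 at 0.53. Their summed scaled intensity was 522464 to 551077 in FAF and 387521 to 438012 in Conv. Their median was close to the 0.37 of apical and above the 0.25 of basolateral transporters, while Slc6a20a, at 2.30, lay above each of the 12. All 8 smooth muscle markers lay below 0, with a median of -0.55 and with Synm at -0.76, Des at -0.74 and Cnn1 at -0.71, and summed intensities of 61501 to 62055 in FAF and 88555 to 97012 in Conv. All 7 crypt proliferation markers passed the 1.5-fold rule as lower, with a median of -0.97, Cdc20 at -1.10 and Ccnb1 and Plk1 at -1.05. Their summed intensity was 9746 to 9967 in FAF and 18497 to 18848 in Conv. The part of these markers in the transporter ratios was not tested.

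Markers of gut segment are of use here because several carriers vary along the intestine. The 7 proximal markers had 6 ratios above 0 and 1 below and a median of 0.17, with lactase Lct at 1.62, Adh6a at 1.06 and Cybrd1 at -0.43, and 2 passed the 2-fold rule as higher. Of 6 ileum markers 4 were measured, 1 above 0 and 3 below, with a median of -0.32. Nr1h4 and Slc51b stood at -0.58, Slc51a at -0.06 with opposite signs on the arrays, and Slc10a2 at 0.06. Fabp6 and Fgf15 were too dim to be measured. Summed intensities of the 6 were 56282 to 57947 in FAF and 59752 to 64890 in Conv. Summed intensities of the proximal markers were 188697 to 202094 in FAF and 63342 to 83969 in Conv, and Lct and Adh6a made up nearly all of that. The other 5 summed to 2012 to 2084 in FAF and 1940 to 1957 in Conv, with ratios from -0.43 to 0.26. The part of the segment sampled was not tested.

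The other cell and tissue lists were mixed. Enteroendocrine markers had 9 of 11 ratios above 0 and a median of 0.32, with Nts at 1.41, Gip at 1.02 and Chgb at 0.58. The 8 T cell markers had 7 ratios below 0 and 1 above and a median of -0.37, with Cd8b1 at -1.33, Cd5 at -1.05 and Cd3d at -0.59. Cd8a stood at -0.27, and Cd3e at 0.02 with opposite signs on the arrays. Adipocyte markers, 6 of 7 measured, had 5 ratios below 0 and 1 above and a median of -1.06, with Cfd at -2.72, Adipoq at -2.08 and Plin1 at -1.13. The exception, Cidec, was higher by the 2-fold rule at 1.06. Of 7 stomach markers 5 were measured, but Gkn2, Tff1 and Gif were not well above background in Conv. Against the Conv floor used for Slc38a11, which gives no firm bound, they were 2.50-fold, 2.44-fold and 1.24-fold higher in FAF. Atp4b stood at -0.18. Of 7 exocrine pancreas markers 4 were measured. Cela3b and Cpa1 were not well above background in Conv, and against the same floor their folds were 1.16 and 1.05. Cpa1 was dim in both diets, at 6.37 and 6.41 in FAF and 6.33 and 6.31 in Conv. Ctrb1 stood at -0.21 and Cpb1 at 0.08.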

How the data were processed

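Spot intensity of both dyes with local background, and a log10 ratio of Cy5 over Cy3, were deposited by the authors as scanner files. These name Agilent Feature Extraction 11.5.1.1 in their headers. The deposited value table equals that log10 ratio to within 5e-08. Trizol extraction and the Quick Amp labelling kit preceded hybridisation to 4x44K two-colour arrays, per the labels' protocols.

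From the mean intensities, limma 3.58.1 in R 4.3.3 corrected background by normexp with an offset of 50, which shrinks the ratios of dim genes, and normalised each array by loess, with the 1639 control spots at weight 0. The array with FAF in Cy3 was turned before averaging. Spots flagged as outliers (116 and 95) were left out, and 0 were saturated. A gene is its brightest measured probe (25438 of 41174 probes measured, 73 of 114 for members). Scaled log2 levels come from loess and Aquantile, and summed intensities are on the linear scale. RefSeq names matched 96 of the 114 member probes, and 0 differed from the array's name.

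The members and lists were chosen with earlier results of these data known. Members are named, with levels for those past a rule or with a side, and up to 3 genes of largest ratio per list. Some items are withheld and not reported here. Any further gene was chosen after its values were seen. Levels of different genes were not compared, apart from sums over a list and the share of Lct and Adh6a in the proximal sum. Probes of the same gene were ranked by brightness.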

Additional observations from a re-analysis of the deposited data

How the results depend on the processing

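Each of 11 alternatives was set against the main values. By the software's log10 ratio and by the deposited value table alike, 5 transporters were at least 2-fold higher in FAF and 2 were lower, in place of 3 and 0. Over all 17037 measured genes the same settings gave 487 higher and 348 lower, in place of 263 and 151. At least 1.5-fold lower were 7 transporters, in place of 1, with Slc1a1, Slc1a4, Slc36a2, Slc43a1, Slc7a10 and Slc7a5 added. Of those added, Slc1a1, Slc1a4, Slc43a1 and Slc7a5 were well above background in both diets on both arrays. The array with FAF in Cy3 alone gave 5 at least 2-fold higher, beside 268 of all genes, and 3 at least 1.5-fold lower. An offset of 10 gave 1 at least 2-fold lower, beside 200 of all genes, and 4 at least 1.5-fold lower. The 1.5-fold counts over all genes were not taken under the alternatives. At least 1.5-fold lower were 2 under median centring and 3 with no background correction. Without a filter on dim probes the median over all 62 transporters was 0.030, in place of 0.10. By the 2-fold rule, the genes added by the software's ratio were Slc38a11 and Slc6a20b as higher and Slc36a2 and Slc7a10 as lower. Each of them missed background in 1 diet on at least 1 array. At least 1.5-fold higher were 6 in place of 8 under median centring, which lost Slc3a2 and Slc6a8, and 6 with the mean over probes, which lost Slc3a2 and Slc6a7. Slc6a7 was also lost with only the Cy5-labelled FAF array, and Slc6a20b when both diets had to be above background. Of single-gene values under an alternative, 473 kept their side of the 2-fold rule, 13 passed it newly, 1 lost it (Slc7a15 under median centring) and 2 near 0 moved, and 0 called values changed sign. The deposited value table repeats the software's values, so these counts include those values under both settings. Naming members by RefSeq symbol changed no call. Over the settings, Slc6a20a ran from 2.27 to 2.34, Slc7a8 from 0.84 to 1.01, Slc7a1 from -0.89 to -0.69 and Slc6a3 from 3.23 to 5.11. No paired analysis was possible because both arrays hold the same pair of RNA extracts. The ratios of dim carriers are limited by their signal over background, and every ratio by having 1 RNA sample in each diet.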
